A study of Homo sapiens with 12 samples.

Results

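The 9 genes described here, HLA-B, HLA-C, HLA-E, B2M, TAP1, TAP2, PSMB8, PSMB9 and NLRC5, belong to the MHC class I antigen presentation pathway. They were taken by name from a table of 63568 gene identifiers, each through its identifier on the primary assembly, and all 9 passed the filter on low counts, which left 25249 genes for testing. RNA was measured by sequencing in 12 samples of MDA-MB-231/GFP, a human triple negative breast cancer line that carries GFP and whose genotype is otherwise given as wild type, embedded in Matrigel. The 6 conditions held 2 samples each: untreated cells of day 2 (C1), untreated cells of day 4 (C2), and cells given 0.0005, 0.005, 0.05 or 0.5 μM Paclitaxel on the 2nd day and taken on day 4. Paclitaxel is a drug that binds microtubules and arrests dividing cells, and the study used it to stop migration in the gel. All samples came from 1 cell line grown without immune cells, and the cells were released from the gel with enzymes before lysis.

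MHC class I molecules show fragments of the cell's own proteins to cytotoxic T cells and natural killer cells. The proteasome cuts the proteins, the TAP transporter carries the peptides into the endoplasmic reticulum, and there they are loaded onto a heavy chain paired with β2-microglobulin. Interferons raise the transcription of many genes of this pathway, partly through NLRC5, a coactivator that acts at their promoters, and loss of the pathway is a known route by which tumours escape T cells.

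All but 2 of the genes lie in the MHC region of chromosome 6 (positions on GRCh37, GENCODE annotation). HLA-E lies at chr6:30457286-30461971, HLA-C at chr6:31236526-31239907 and HLA-B at chr6:31321649-31334844. The other 4 form a cluster: TAP2 at chr6:32789610-32806516, PSMB8 at chr6:32808494-32812456, TAP1 at chr6:32812986-32821593 and PSMB9 at chr6:32811913-32827628. B2M lies at chr15:45003556-45011049 and NLRC5 at chr16:57023397-57117443. TAP1 and PSMB9 are transcribed in opposite directions, and their RefSeq starts on GRCh38.p14 are 488 bases apart.

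The sequences before the transcription start are shown for 5 of the genes. Of these, HLA-B, HLA-C and TAP1 moved together across the samples, as described below. B2M followed them less closely, and TAP2 did not follow them. RefSeq windows were at hand for 7 of the 9 members. Each line gives the 250 bases before the start on the gene's own strand, 5′ to 3′, on GRCh38.p14. Capitals mark, on either strand, TGACG (the core of the X2 box, to which CREB and ATF factors bind), ATTGG (the Y box, to which NF-Y binds) and either form of an interferon response element core, GAAANNGAA or GAANNGAAA, which overlap each other in a full element. The windows are HLA-B chr6:31357180-31357429, HLA-C chr6:31272093-31272342, TAP1 chr6:32853705-32853954 and TAP2 chr6:32838740-32838989, all on the minus strand, and B2M chr15:44711267-44711516 on the plus strand.
HLA-B: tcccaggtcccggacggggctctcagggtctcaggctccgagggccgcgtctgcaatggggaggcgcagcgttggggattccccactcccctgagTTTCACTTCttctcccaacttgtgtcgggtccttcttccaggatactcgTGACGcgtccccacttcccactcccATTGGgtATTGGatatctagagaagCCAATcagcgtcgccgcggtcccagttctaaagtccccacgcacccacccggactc
HLA-C: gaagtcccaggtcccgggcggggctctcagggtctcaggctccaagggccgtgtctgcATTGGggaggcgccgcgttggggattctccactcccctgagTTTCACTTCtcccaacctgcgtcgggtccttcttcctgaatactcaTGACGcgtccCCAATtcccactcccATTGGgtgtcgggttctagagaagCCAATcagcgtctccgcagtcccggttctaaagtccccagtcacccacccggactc
B2M: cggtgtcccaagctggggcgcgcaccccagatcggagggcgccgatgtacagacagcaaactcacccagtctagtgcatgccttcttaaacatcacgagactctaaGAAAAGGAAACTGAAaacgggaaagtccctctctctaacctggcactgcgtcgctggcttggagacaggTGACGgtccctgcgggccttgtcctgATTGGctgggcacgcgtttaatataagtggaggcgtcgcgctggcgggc
TAP1: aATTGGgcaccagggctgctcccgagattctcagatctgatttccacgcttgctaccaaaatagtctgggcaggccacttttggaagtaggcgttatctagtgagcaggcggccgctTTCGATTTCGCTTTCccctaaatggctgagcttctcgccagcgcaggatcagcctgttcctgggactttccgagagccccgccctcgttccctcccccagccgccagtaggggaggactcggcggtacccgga
TAP2: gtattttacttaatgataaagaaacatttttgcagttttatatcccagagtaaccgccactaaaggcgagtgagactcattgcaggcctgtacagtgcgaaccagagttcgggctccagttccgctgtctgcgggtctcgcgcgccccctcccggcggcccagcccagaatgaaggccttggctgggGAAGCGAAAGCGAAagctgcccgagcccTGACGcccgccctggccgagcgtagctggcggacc

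HLA-B, HLA-C and B2M shared an arrangement of the X2 and Y letters. In HLA-B TGACG began 106 bases before the start and ATTGG followed 25 bases further on. HLA-C had the same pair 25 bases apart, and B2M had it 26 bases apart. Among all 35116 RefSeq windows, which reach from 250 bases before to 50 after a start, 0.242% held the pair on the gene's strand at a distance of 20 to 30 bases. Alone, TGACG was in 24.6% and ATTGG in 34.6% of all windows. Either form of the interferon element was in 14.5% of all windows, and among the genes printed above HLA-B, HLA-C, B2M, TAP1 and TAP2 each held one. Of the other windows, a further window of TAP1 and the one of PSMB9 held neither form, and PSMB8 held them in 1 of its 2 windows, beginning 3 bases before the start and just after it. In TAP1 and B2M 2 copies of GAAANNGAA overlapped. These matches describe letters only, and binding was not measured.

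The total count per sample ran from 38380629 to 79169121, lowest in C1 replicate 2. Levels are given as CPM (counts scaled to a fixed library total), scaled between samples by the TMM method. Of the markers listed for the line, the mesenchymal VIM had a mean of 1057 CPM, CD44 280 CPM and the epithelial keratins KRT8 and KRT18 417.3 and 146.5 CPM. The growth factor receptor gene EGFR, also on that list, was at 360.9 CPM and was the only one of the 5 to pass the test in treated against untreated samples, lower at −0.46 (adjusted p = 0.0281). Of the receptors that define triple negative cells, ESR1 was at 0.28, PGR at 0.03 and ERBB2 at 32.8 CPM. Fewer cells and less RNA per cell cannot be told apart in such bulk samples.

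Divided by the length of the exons, the 9 genes covered more than a 100-fold range of level. B2M, the light chain shared by all class I molecules, stood highest at 242 CPM per kilobase (SD 44.8, n = 12 samples). HLA-E, a heavy chain that mainly binds signal peptides and is read by natural killer cells, followed at 57.2 ± 14.3. HLA-B at 17.9 ± 5.37, PSMB8 at 15.8 ± 1.55, HLA-C at 14.6 ± 2.72 and TAP1 at 12.3 ± 2.5 CPM per kilobase had overlapping ranges, which alone do not order them. Within each condition, TAP1 had the lowest mean of this group. PSMB9 reached 7.91 ± 1.47, and its range overlapped that of TAP1. TAP2 at 3.09 ± 0.819 and NLRC5 at 1.06 ± 0.128 were lowest, and both lay apart from their neighbours in all 12 samples. The lengths came from a newer annotation than that of the counts, and that of HLA-B includes 1421 bases shared with a pseudogene. These levels are therefore approximate.

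**Figure D1:**
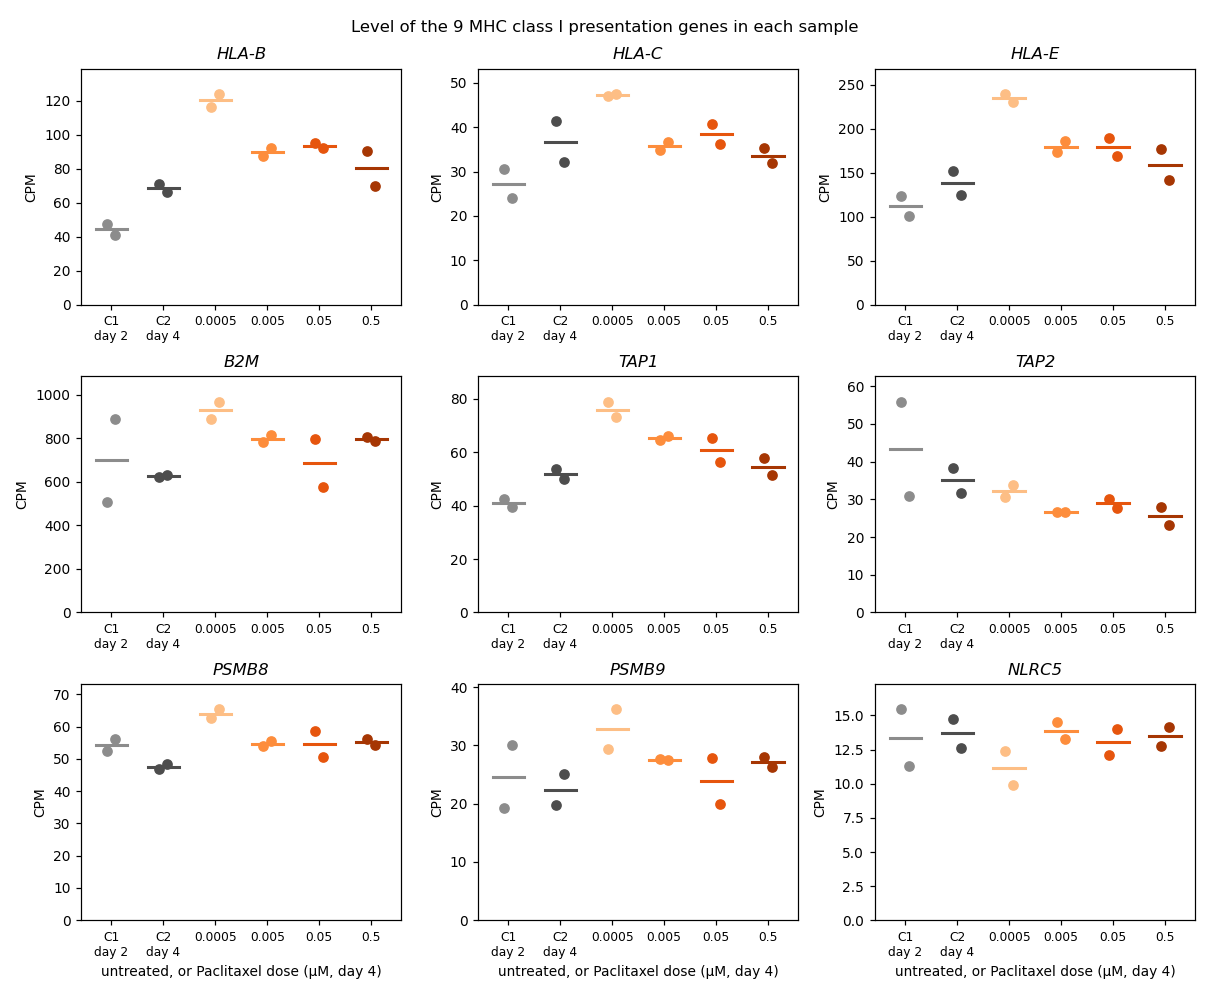
Level of each of the 9 genes in CPM (vertical axes, starting at 0) in the 2 samples of each condition (points) with their mean (bars). For HLA-B, HLA-C, HLA-E, B2M, TAP1 and PSMB8 both samples at 0.0005 μM lay above all the others, whereas TAP2 was highest in 1 sample of C1, at 55.92 CPM.

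The first comparison asked how the genes differed between each Paclitaxel dose and the untreated cells of the same day. All doses were set against the same 2 samples of C2. Of the 9 genes, 2 passed the test at 0.0005 μM, HLA-B and HLA-E, both higher (edgeR quasi-likelihood test, Benjamini-Hochberg adjusted p under 0.05 over all genes tested), while 2.34% of all genes passed it. At 0.005, 0.05 and 0.5 μM none of the 9 passed in edgeR, against 3.28%, 8.32% and 6.32% of all genes. With an unadjusted p under 0.05 there were 3, 2 and 0 of them at these doses, against 18.7%, 23.7% and 22.9% of all genes. DESeq2 also called 0 of them at each, against 5.39%, 10.6% and 9.11% of all genes. At 0.0005 μM DESeq2 called 4 of the 9, against 4.65% of all genes, and edgeR on the 4 samples of the comparison alone called 6, against 12% of all genes. Both classical heavy chain genes, HLA-E, B2M, TAP1 and both proteasome genes had a positive fold change at 0.0005 μM.

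HLA-B encodes a classical heavy chain that presents peptides to cytotoxic T cells. Its level was 47.6 and 41.1 CPM in C1 and 70.9 and 66.2 CPM in C2. It was 116.4 and 123.9 CPM at 0.0005 μM, 87.3 and 92.3 CPM at 0.005 μM, 95.0 and 91.9 CPM at 0.05 μM, and 90.2 and 69.99 CPM at 0.5 μM. All treated samples except 0.5 μM replicate 2 lay above both C2 samples. Against C2, HLA-B had a log2 fold change of 0.81 (SE 0.15, adjusted p = 0.0136) at 0.0005 μM. At 0.005, 0.05 and 0.5 μM it was 0.39 (adjusted p = 0.181), 0.45 (adjusted p = 0.0877) and 0.22 (adjusted p = 0.394).

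HLA-E showed the same order of conditions at its extremes. Its level was 123.3 and 100.5 CPM in C1, 151.6 and 125.1 CPM in C2, and 239.5 and 229.8 CPM at 0.0005 μM. It was 173.1 and 186.1 CPM at 0.005 μM, 189.8 and 168.9 CPM at 0.05 μM, and 176.5 and 141.6 CPM at 0.5 μM. The 0.0005 μM samples stood above all the others, and 0.5 μM replicate 2 again fell within the C2 range. The log2 fold change against C2 was 0.76 (SE 0.16, adjusted p = 0.0316) at 0.0005 μM and 0.20 (SE 0.16, adjusted p = 0.494) at 0.5 μM. Leaving out 1 sample of C2 or of 0.0005 μM, which leaves that condition with a single sample, ended both calls, with adjusted p between 0.0791 and 0.131 for HLA-B and between 0.104 and 0.235 for HLA-E, and 4 of the 8 samples at other doses or in C1 ended the HLA-E call alone, with adjusted p up to 0.0694.

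HLA-C, the other classical heavy chain gene, differed from HLA-B. Its level was 30.6 and 23.9 CPM in C1, 41.4 and 32.2 CPM in C2, and 47.1 and 47.5 CPM at 0.0005 μM. At the 3 higher doses its samples ran from 31.9 to 40.8 CPM, inside or within 1 CPM of the C2 range. The log2 fold change against C2 was 0.36 (SE 0.16, adjusted p = 0.284) at 0.0005 μM and −0.04, 0.07 and −0.13 at the higher doses. The value at 0.0005 μM was 0.56 without C2 replicate 1 and 0.19 without C2 replicate 2, and passed in neither.

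B2M was at 508.9 and 886.7 CPM in C1, the widest gap between 2 samples of 1 condition for this gene, and at 623.0 and 632.0 CPM in C2. The treated samples ran from 575.5 to 967.4 CPM with a median of 800.7 CPM, and 7 of the 8 lay above both C2 samples. Its log2 fold change against C2 was 0.57 (SE 0.23, adjusted p = 0.242) at 0.0005 μM, where B2M was at 889.6 and 967.4 CPM. It did not pass the test at any dose.

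TAP1 and TAP2 encode the subunits of the peptide transporter, and they went different ways. TAP1 was at 42.5 and 39.4 CPM in C1, 53.9 and 49.99 CPM in C2, and 78.9 and 73.1 CPM at 0.0005 μM. Its level was 64.6 and 66.0 CPM at 0.005 μM, 65.5 and 56.4 CPM at 0.05 μM, and 57.7 and 51.5 CPM at 0.5 μM. The mean was thus lower at each higher dose, and the log2 fold change against C2 was 0.55 (SE 0.14, adjusted p = 0.056), 0.33, 0.23 and 0.07. At 0.0005 μM TAP1 did pass with DESeq2, the 4 samples alone, a minimum mean of 1 CPM or a block for replicate number. It did not pass there with RLE scaling or without a filter. TAP2 was at 55.9 and 30.8 CPM in C1 and 38.4 and 31.7 CPM in C2. In the treated samples TAP2 ran from 23.3 to 33.9 CPM with a median of 27.9 CPM, and its log2 fold change against C2 was −0.12, −0.40, −0.28 and −0.45 with rising dose, none past the test.

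PSMB8 and PSMB9 encode catalytic subunits of the immunoproteasome, which replace the constitutive subunits encoded by PSMB5 and PSMB6. PSMB8 was at 46.9 and 48.4 CPM in C2, and all 8 treated samples, from 50.4 to 65.3 CPM, lay above both. The C1 samples, at 52.4 and 56.2 CPM, lay within the treated range. PSMB8 had a log2 fold change against C2 of 0.42 (SE 0.13, adjusted p = 0.116) at 0.0005 μM and between 0.20 and 0.21 at the other doses. PSMB9 was at 19.7 and 25.1 CPM in C2 and at 29.3 and 36.2 CPM at 0.0005 μM, with a log2 fold change of 0.55 (SE 0.22, adjusted p = 0.236). Its largest gap within a condition was in C1, at 19.2 and 30.04 CPM.

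NLRC5, the coactivator, had the narrowest range over the samples in CPM. It was at 15.4 and 11.3 CPM in C1, 14.8 and 12.6 CPM in C2, and from 9.88 to 14.5 CPM in the treated samples. It was lowest at 0.0005 μM, at 12.4 and 9.88 CPM, the dose at which 7 of the 9 genes were highest. Its log2 fold change there was −0.30 (SE 0.18, adjusted p = 0.441), and at the other doses it lay between −0.07 and 0.02.

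The median log2 fold change of the 9 genes against C2 was 0.55, 0.30, 0.13 and 0.20 at 0.0005, 0.005, 0.05 and 0.5 μM. Over all genes tested it was −0.01, 0.04, −0.01 and 0.04. Over the genes above 8 CPM, to which all 9 belong, it was −0.04, −0.12, −0.11 and −0.11. At each of the 3 lower doses 7 of the 9 genes had a positive fold change, and at 0.5 μM 6 had one.

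**Figure D2:**
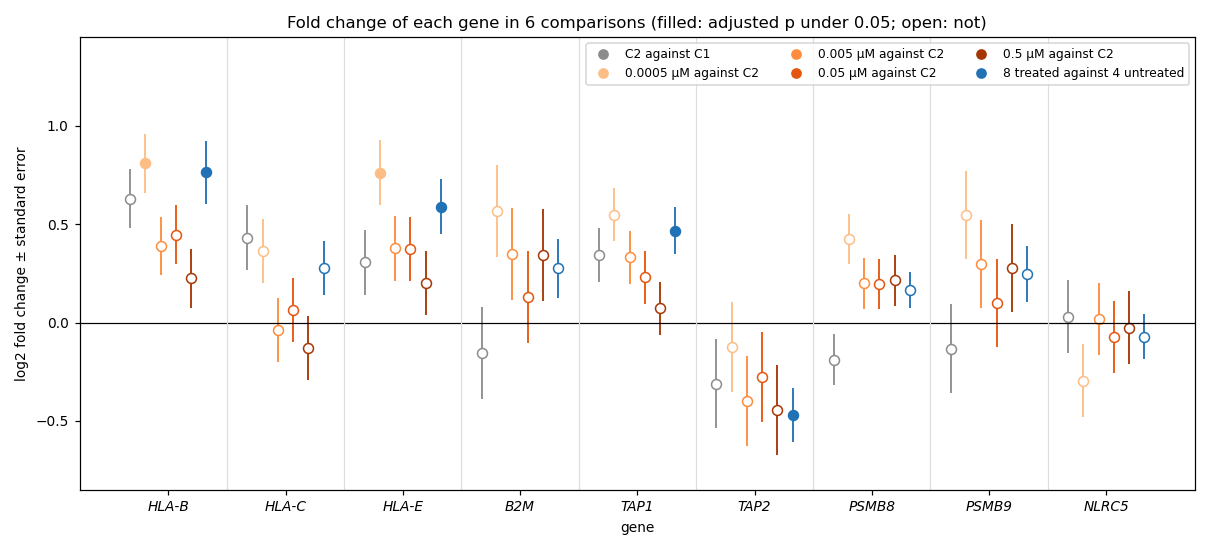
Log2 fold change with its standard error (vertical axis) of each gene in 6 comparisons (colours); filled points have an adjusted p under 0.05. Filled points are HLA-B and HLA-E at 0.0005 μM against C2, and HLA-B, HLA-E, TAP1 and TAP2 in the 8 treated against the 4 untreated samples.

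The second comparison, of C2 with C1, asked how the genes differed between the untreated days. None of the 9 passed the test in edgeR, against 0.325% of all genes, while 3 had an unadjusted p under 0.05, against 10% of all genes, and DESeq2 called 1, against 1.41%. HLA-B had a log2 fold change of 0.63 (SE 0.15, adjusted p = 0.158), HLA-C of 0.43 (SE 0.16, adjusted p = 0.439), TAP1 of 0.34 (SE 0.14, adjusted p = 0.451) and HLA-E of 0.31 (SE 0.16, adjusted p = 0.537). For each of these 4 genes both day 4 samples lay above both day 2 samples, by less than 2 CPM at the closest for HLA-C and HLA-E. With 1 sample left out, the log2 fold change ran from 0.24 to 0.62 for HLA-C and from 0.16 to 0.46 for HLA-E. B2M, TAP2, PSMB8 and PSMB9 had negative values, from −0.31 to −0.13. For B2M, TAP2 and PSMB9 the C1 samples differed from each other by more than the day means did.

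The third comparison set the 8 treated against the 4 untreated samples. HLA-B, HLA-E and TAP1 were higher and TAP2 was lower in the treated samples, so that 4 of the 9 genes passed the test, while 24.4% of all genes did. HLA-B was at 95.9 ± 17.0 CPM (SD, n = 8) against 56.4 ± 14.4 CPM (SD, n = 4), a log2 fold change of 0.76 (SE 0.16, edgeR adjusted p = 0.00272). HLA-E was at 188.2 ± 32.2 against 125.1 ± 20.9 CPM, a log2 fold change of 0.59 (SE 0.14, adjusted p = 0.00608). TAP1 was at 64.2 ± 8.98 against 46.5 ± 6.67 CPM, a log2 fold change of 0.47 (SE 0.12, adjusted p = 0.0102). TAP2 was at 28.4 ± 3.17 against 39.2 ± 11.7 CPM, a log2 fold change of −0.47 (SE 0.14, adjusted p = 0.0205). In an exact two-sided permutation test of log2 CPM over all assignments of the samples, p was 0.00404 for HLA-B, HLA-E and TAP1 and 0.0101 for TAP2, where 0.00202 is the smallest value possible.

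The other 5 genes did not pass. The log2 fold change was 0.28 for HLA-C (adjusted p = 0.156), 0.28 for B2M (adjusted p = 0.191), 0.25 for PSMB9 (adjusted p = 0.215), 0.16 for PSMB8 (adjusted p = 0.205) and −0.07 for NLRC5 (adjusted p = 0.678). The median of the 9 was 0.28, against −0.0019 over all genes tested and −0.15 over the genes above 8 CPM, among which all 9 belong. For HLA-B, HLA-E and TAP1, 7 of the 8 treated samples lay above all 4 untreated samples. For each of the 9 genes the 2 groups overlapped in at least 1 sample, while 13.2% of all genes had groups that did not overlap.

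The comparison pooled the untreated days, whereas all treated samples were of day 4. With C2 as the only control, under which 13.5% of all genes passed, none of the 4 calls remained: the log2 fold change was 0.49 for HLA-B (adjusted p = 0.053), 0.45 for HLA-E (adjusted p = 0.0744), 0.32 for TAP1 (adjusted p = 0.13) and −0.30 for TAP2 (adjusted p = 0.111). Without C1 replicate 1, whose TAP2 level of 55.9 CPM was the highest, TAP2 had a log2 fold change of −0.25 (adjusted p = 0.136). Without C1 replicate 2, which was high for B2M and PSMB9, B2M passed at 0.47 (adjusted p = 0.017) and PSMB9 at 0.40 (adjusted p = 0.0374), whereas without C1 replicate 1 they had 0.17 and 0.16. Without C2 replicate 1 HLA-C passed at 0.42 (adjusted p = 0.0426), and without C1 replicate 2 it had 0.18.

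Markers of other cells also moved between these groups. The markers listed for leukocytes were PTPRC, CD3E, CD14, CD68 and ITGAM. The summed level of these 5 ran from 0.537 to 0.899 CPM in untreated and from 2.01 to 3.82 CPM in treated samples. Of them 3, ITGAM, CD14 and PTPRC, passed the test, all higher, while 24.4% of all genes passed it. CD68 had a log2 fold change of −0.48 (adjusted p = 0.518), and CD3E was too low to test. The sum of 4 genes of antigen presenting cells (HLA-DRA, HLA-DRB1, CD74 and CIITA) ran from 0.0597 to 0.407 and from 0.66 to 1.34 CPM. CD74 and CIITA passed the test, both higher, against the same 24.4% of all genes. HLA-DRB1 was at 0 in all samples, and HLA-DRA, CD3E and PTPRC had means of 0.01, 0.01 and 0.15 CPM. Against C2, ITGAM and CD74 also passed at every dose. At 0.0005 μM, where 2.34% of all genes passed, they had 3.79 (adjusted p = 0.00253) and 2.64 (adjusted p = 0.035). The part of these low signals in the class I values was not tested.

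The fourth comparison asked whether levels followed dose within the 8 treated samples. The slope per 10-fold dose was negative for 8 of the 9 genes, and 1 of them, TAP1, passed the test, against 3.06% of all genes. Negative slopes were also common elsewhere, in 6946 of the 11193 genes above 8 CPM and in 35 of the 42 other pathway genes tested. The slope of TAP1 was −0.15 on the log2 scale (SE 0.04, adjusted p = 0.0364). With a block for replicate number in the same test, TAP1 did not pass (adjusted p = 0.055). HLA-B had a slope of −0.17 (adjusted p = 0.0565), HLA-E of −0.17 (adjusted p = 0.0572) and HLA-C of −0.14 (adjusted p = 0.0831). NLRC5 had a positive slope of 0.07 (adjusted p = 0.488), which ran from 0.0133 to 0.0966 with 1 sample left out. Of the 8 treated samples, leaving out any 1 of 5, both of 0.0005 μM, both of 0.5 μM or 0.005 μM replicate 2, ended the TAP1 call, with adjusted p between 0.0508 and 0.275.

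The transporter subunits can also be compared within a sample. The ratio of TAP1 to TAP2, in counts per kilobase of exon, was 1.66 and 2.80 in C1 and 3.07 and 3.45 in C2. At 0.0005 μM it was 5.65 and 4.72, at 0.005 μM 5.32 and 5.43, at 0.05 μM 4.76 and 4.45, and at 0.5 μM 4.49 and 4.83. All treated samples thus stood above all untreated ones, and the order within the treated samples did not follow dose. The ratio was noticed in these data and is given as a description. Of all single genes, 13.2% had treated and untreated samples that did not overlap, and the share among ratios of genes was not counted.

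For the proteasome, the ratio of PSMB8 to PSMB5, its constitutive counterpart, was 0.149 and 0.129 in C1 and 0.1495 and 0.147 in C2. In the treated samples it ran from 0.157 to 0.198, again above all untreated samples. The ratio of PSMB9 to PSMB6 ran from 0.0699 to 0.110 in the untreated and from 0.0874 to 0.119 in the treated samples, which overlapped, and it was highest at 0.0005 μM, at 0.119 and 0.118. A further such pair, PSMB10 to PSMB7, ran from 0.0405 to 0.0579 in untreated and from 0.0589 to 0.0781 in treated samples, without overlap. In all samples the immunoproteasome genes stood well below the constitutive ones.

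**Figure D3:**
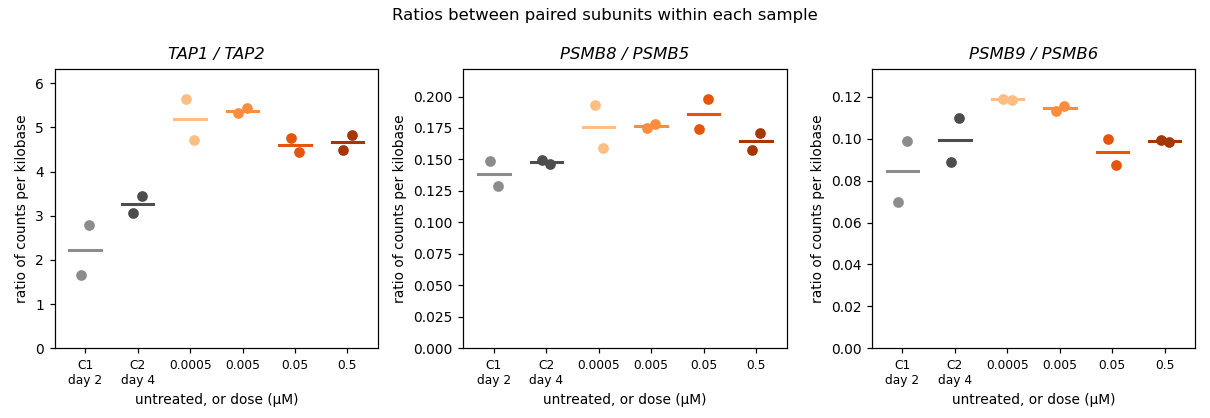
Ratio of counts per kilobase of exon (vertical axes, starting at 0) between TAP1 and TAP2, PSMB8 and PSMB5, and PSMB9 and PSMB6 in the 2 samples of each condition (points) with their mean (bars). The TAP1 to TAP2 ratio was at most 3.45 in untreated and at least 4.45 in treated samples, whereas the PSMB9 to PSMB6 ratio overlapped between them.

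Across the 12 samples, which differ in depth and share conditions in pairs, the 9 genes fell into sets by the correlation of their log2 CPM. HLA-E and TAP1 had a Pearson's r of 0.974, HLA-B and HLA-E of 0.967, and HLA-B and TAP1 of 0.964, and HLA-C joined them with r from 0.885 to 0.915. B2M and PSMB9 had an r of 0.946, PSMB8 and PSMB9 of 0.819, and B2M and PSMB8 of 0.795. Between these sets r ran from 0.210 to 0.610. NLRC5 ran opposite to the second set, with r of −0.832 with PSMB9, −0.740 with B2M and −0.709 with PSMB8, and between −0.319 and −0.226 with the first set. TAP2 had its highest r, 0.185, with NLRC5. These sets did not follow the gene order on the chromosome, since TAP1 and its neighbour PSMB9 had an r of 0.471. The samples of a condition differed most for B2M in C1 (SD 267 CPM) and at 0.05 μM (SD 157 CPM). The same held for PSMB7, a constitutive proteasome gene outside the 9 (SD 63.8 and 39.9 CPM). The part of such differences between samples in these correlations was not tested.

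**Figure D4:**
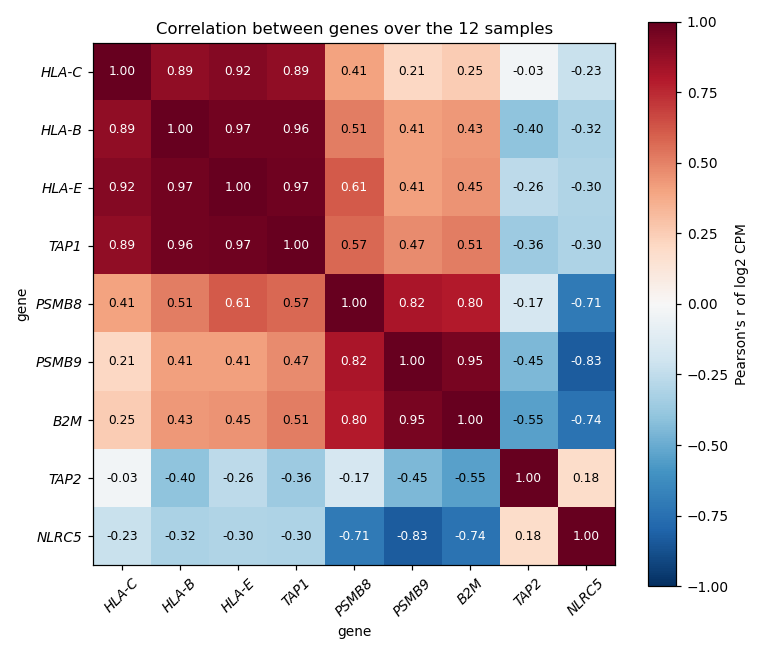
Pearson's r of log2 CPM over the 12 samples between each pair of genes (colour scale from −1 to 1, values printed). HLA-C, HLA-B, HLA-E and TAP1 form a block at 0.885 or above, PSMB8, PSMB9 and B2M one at 0.795 or above, and NLRC5 is negative with all but TAP2.

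The genes whose level most resembled the mean standardized level of the 9 were sought among 11039 other genes with a symbol and a mean of at least 5 CPM. CREB3, a transcription factor held at the endoplasmic reticulum, came first with r = 0.973 over the 12 samples. It was followed by ATP6V0B, a subunit of the vacuolar proton pump, with 0.950, APOL3, an apolipoprotein L gene, with 0.948, GDF15, a secreted stress cytokine, with 0.947, and TSPAN31, a tetraspanin, with 0.942.

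Around the 9 genes, 45 others of the pathway were listed by role, of which 42 could be tested. In the treated against the untreated samples 7 were higher and 5 lower, a share of the 42 close to the 24.4% of all genes that passed this test, and the counts by role below are read against the same 24.4%. Their median log2 fold change was 0.01. This comparison pooled the untreated days, and results with C2 as the only control are not given for these genes. Of the genes named below, only TAPBPL, ERAP2, PSMB10 and IFNL1 also passed at any dose against C2. HLA-F, a heavy chain gene of low level, was higher, at 0.774 ± 0.0807 against 0.440 ± 0.180 CPM (SD, n = 8 and n = 4), with a log2 fold change of 0.82 (adjusted p = 0.02). HLA-G was too low to test.

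Of 7 genes of peptide loading and trimming 2 were higher and 1 lower (24.4% of all genes passed). TAPBPL, a homologue of tapasin that edits peptides, rose from 2.65 to 4.12 CPM, with a log2 fold change of 0.64 (adjusted p = 0.00189), and also passed at 0.005 and 0.5 μM against C2. ERAP2, an aminopeptidase that trims peptides, rose by 0.40 on the log2 scale (adjusted p = 0.00799) and also passed at 0.5 μM against C2, at 0.54 (adjusted p = 0.0403). CALR, a chaperone of the loading complex, fell by 0.41 (adjusted p = 0.0447).

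Of 8 proteasome genes 1 was higher and 1 lower, a share near the 24.4% of all genes. PSMB10, a further catalytic subunit of the immunoproteasome, had a log2 fold change of 0.34 (adjusted p = 0.0405) and, unlike PSMB8 and PSMB9, also passed at 0.0005 μM against C2, at 0.67 (adjusted p = 0.0443). The difference between these subunits was not tested. PSME3, an activator of the proteasome in the nucleus, had a log2 fold change of −0.36 (adjusted p = 0.0326).

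Among 14 regulators of transcription 1 was higher and 2 lower, no more than the 24.4% of all genes. IRF9, the DNA-binding part of the complex activated by type I and III interferons, had a log2 fold change of 0.85 (adjusted p = 0.0371) at a mean of 2.33 CPM in treated samples. EZH2, a histone methyltransferase known to silence class I genes, had −0.43 (adjusted p = 0.00307), at 51.5 ± 3.76 against 69.3 ± 8.15 CPM. Its mean was already lower in C2, at 62.56 CPM, than in C1, at 76.05 CPM. NFYB, a subunit of NF-Y, had −0.38 (adjusted p = 0.0152). IRF1, an interferon-induced activator of class I genes, had 0.34 (adjusted p = 0.204) and did not pass.

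Of 10 genes of interferon signalling 8 could be tested. IFNG and IFNB1 had no count in any sample. IFNL1, a type III interferon, was low throughout. It had 2 and 0 counts in C1, 6 and 3 in C2, and 59 and 50 at 0.0005 μM. At 0.005, 0.05 and 0.5 μM it had 31 and 24, 10 and 17, and 14 and 4 counts. Its log2 fold change was 3.36 (SE 0.53, adjusted p = 0.00606) at 0.0005 μM against C2 and 2.85 (adjusted p = 0.00893) in treated against untreated samples, and its slope per 10-fold dose was −0.88 (adjusted p = 0.00388). At 0.784 and 0.850 CPM it was highest at 0.0005 μM, the dose at which 7 of the 9 members had their highest mean. TYK2, a kinase of the interferon receptors, was lower in the treated samples, at −0.37 (adjusted p = 0.0252). IFNAR2, a subunit of the type I interferon receptor named here after its value was seen, was the other gene of the list with a called slope, at −0.22 (adjusted p = 0.0112).

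Reads of some of these genes may be shared. The exons of PSMB8-AS1, on the opposite strand, overlap 17.3% of the exon length of PSMB8 and 14.2% of that of TAP1, and PSMB8 and PSMB9 overlap by 139 bases. Whether the counting used strand was not given in the sources used here. PSMB8-AS1 was at 0.606 to 1.29 CPM. DHFRP2, a pseudogene on the strand of HLA-B, overlaps 30.7% of its annotated exon length and had at most 0.013 CPM. A further gene on the strand of TAP2, ENSG00000250264, overlaps 19.5% of its exon length and had at most 0.0708 CPM. The table also held identifiers without a symbol whose counts lay within 1% of those of a member in all samples, 7 for PSMB8, 5 for TAP1, 4 for PSMB9 and 2 for HLA-E, and these could not be named. Such reads may have been counted for more than 1 identifier, although the study states that uniquely aligned reads were kept.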

How the data were processed

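The authors trimmed reads with Trimmomatic 0.39, aligned them to GRCh37 with STAR 2.7.5 and, by their methods, counted uniquely aligned reads in exons, although some identifiers have near-identical counts and may share reads. The deposited values are these integer counts per gene, neither normalized nor pooled. Groups came from the sample titles, and the study describes the 2 samples of a condition as biological replicates. Of 63568 identifiers, 55665 were given a symbol. Counts were analysed in R 4.3.3 with edgeR 4.0.16 (TMM, filterByExpr by condition, robust quasi-likelihood fit), and p-values are two-sided, adjusted by Benjamini-Hochberg over 25249 genes. The common biological coefficient of variation was 15.6%. Each dose was compared with C2 and C2 with C1 in 1 model of 12 samples. Treated against untreated samples and the slope on log10 dose were fitted apart. The procedure was tested on simulated counts. The prior count for log2 CPM was 2.

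The members and lists were chosen with earlier results of these data known. All members are named, as are, of 45 other pathway genes, at most 12 that passed a test, by size of the fold change between treated and untreated samples, and those without counts. Some single genes on these lists are not reported here. The alternatives were RLE scaling, DESeq2 1.42.0, 2 other filters, a fit of only the 4 samples compared, a block for replicate number, another contrast or C2 alone as control, exact permutation and leaving out single samples. Motif letters were searched in RefSeq windows.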

Additional observations from a re-analysis of the deposited data

Results flagged for a closer look

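In the 8 treated samples the B2M level of 0.05 μM replicate 2, at 575.5 CPM, stood apart below the others, with a gap to the next sample of 0.588 of the range on the log2 CPM scale. Groups of 4 and 8 samples were tested for the 9 genes, 18 in all, and chance alone sets apart a sample in about 1 in 20 such groups.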

How the results depend on the processing

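Of the 1107 repeats of 63 log2 fold changes under the alternatives, 999 kept their direction and their side of the threshold, 56 gained and 23 lost significance, and 29 changed sign, none of them past the test. The number of the 9 genes called at 0.0005 μM was 2, 4 with DESeq2, 6 with the 4 samples alone, and from 0 to 6 when 1 sample was left out. It was 6 without either sample of C1. At 0.005 μM it was 3 with the 4 samples alone and from 0 to 3 with 1 sample left out. At 0.05 μM it was 1 with the 4 samples alone or a minimum mean of 1 CPM and from 0 to 2 with 1 sample left out. At 0.5 μM it ran from 0 to 1, and for C2 against C1 it was 1 with DESeq2 and from 0 to 2. In treated against untreated samples it fell from 4 to 0 with C2 as the only control and ran from 3, without C1 replicate 1, to 6, without C1 replicate 2, with 1 sample left out. For the slope it was 1, 3 with RLE or a minimum mean of 1 CPM, 4 with DESeq2 or no filter, 0 with the replicate block and from 0 to 3 with 1 sample left out. The cause of these shifts was not tested. Samples of the same number did not deviate together throughout (r from −0.597 to 0.697), so the block pairs only numbers. With the replicate block the TAP1 slope had an adjusted p of 0.055. Over the alternatives the number of all genes called ran from 141 to 2624 at 0.0005 μM (592 in the report), 84 to 3280 at 0.005 μM (827), 322 to 4798 at 0.05 μM (2100), 128 to 5033 at 0.5 μM (1596), 0 to 2785 for C2 against C1 (82), 3296 to 7070 for treated against untreated samples (6155) and 124 to 1635 for the slope (773).

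With a minimum mean of 1 CPM the log2 fold change of HLA-C at 0.005 μM became 0.0566, and that of NLRC5 became 0.0154 at 0.05 μM, 0.0591 at 0.5 μM and 0.0218 in treated against untreated samples. With 1 sample left out, the log2 fold changes that changed sign ranged as follows. At 0.0005 μM TAP2 ran from −0.26 to 0.0235. At 0.005 μM HLA-C ran from −0.21 to 0.15 and NLRC5 from −0.0888 to 0.14. At 0.05 μM HLA-C ran from −0.10 to 0.26, B2M from −0.12 to 0.32, PSMB9 from −0.16 to 0.29 and NLRC5 from −0.21 to 0.0464. At 0.5 μM HLA-B ran from −0.0099 to 0.40, HLA-C from −0.30 to 0.0624, HLA-E from −0.0066 to 0.35, TAP1 from −0.0511 to 0.15 and NLRC5 from −0.13 to 0.0922. For C2 against C1 B2M ran from −0.50 to 0.34, TAP2 from −0.64 to 0.19, PSMB9 from −0.42 to 0.26 and NLRC5 from −0.13 to 0.28. Where 1 sample was left in a condition, it is assumed to vary like the others. Counts summed over haplotype copies were not run, since their identifiers could not be named.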
